A study of Mus musculus with 8 samples.

Results

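Sertoli cells are the somatic cells that line the seminiferous tubules. This account describes 33 genes that mark them, build the barrier between neighbouring Sertoli cells, or belong to their contacts with spermatids. The 33 genes were taken by symbol from a table of 19906 protein-coding genes, and all 33 were found there. They comprise 6 transcription factors, 8 hormones, ligands or receptors, 3 secreted proteins, 8 tight junction genes, 6 genes of gap junctions, adherens junctions or the ectoplasmic specialization, and 2 further markers. Whole testes of 4 Tmem232-/- and 4 Tmem232+/+ mice on a C57BL/6 background were sampled at 2 months of age, with 1 RNA-seq library per mouse. The Tmem232-/- mice carried a constitutive CRISPR-Cas9 deletion within Tmem232, which encodes a transmembrane protein, so Sertoli cells and germ cells both carried the allele. The comparison of the genotypes asks how testis transcripts differ when Tmem232 is disrupted. Nothing in the labels ties libraries of the same number together, and all 8 libraries were used.

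Each Sertoli cell carries many germ cells at once and supplies them with growth factors, iron and lactate. Tight junctions of claudins, occludin and junctional adhesion molecules, held to actin by ZO-1, divide the tubule into a basal and an adluminal compartment. Adherens and gap junctions share this belt, and a related actin-rich contact, the ectoplasmic specialization, attaches spermatid heads to the Sertoli cell.

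The libraries held between 15428421 and 16350871 counts. Tmem232 itself had 148, 132, 123 and 122 CPM (counts scaled to a common library total after TMM normalization) over replicates 1 to 4 labelled Tmem232-/- and 111, 106, 108 and 109.9 over replicates 1 to 4 labelled Tmem232+/+. It was higher in the libraries labelled Tmem232-/- (log2 fold change 0.27, standard error 0.0721, edgeR adjusted p = 0.0335), so its count does not verify the labels, which are used here only as names. The call held in 14 of 19 alternatives (adjusted p from 0.00276 to 0.114) and was lost under the replicate block and without replicate 1 or 2 labelled Tmem232-/-, and also without replicate 2 or 4 labelled Tmem232+/+. The list of elongating spermatid markers had the largest median change of the marker lists. Of its genes, 13 of 13 were called higher in the libraries labelled Tmem232-/- (edgeR adjusted p under 0.05), against 10.3% of all tested genes. The 13 genes summed to 1402 to 2335 CPM there and to 348 to 711 CPM in the libraries labelled Tmem232+/+. All 12 round spermatid markers were also called higher, with sums of 738 to 958 and 284 to 452 CPM. Both lists were chosen with earlier results of these data known, so these counts are not independent of them. No gene of either list was at 0. However, Prm1, Prm2 and Tnp2 of the elongating spermatid list had means of only 4.55, 6.44 and 16.6 CPM under the Tmem232+/+ label. Under the Tmem232-/- label their means were 95.9, 140 and 241 CPM.

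Among the 33 genes, only Nectin3 and Espn passed the test between genotypes, and they changed in opposite directions. Differences were tested with edgeR's quasi-likelihood test, and a gene was called at a Benjamini-Hochberg adjusted p under 0.05 over all 15787 tested genes. Of the 32 genes of the set that passed the filter on low counts, 1 was called higher, against 10.3% of all tested genes, and 1 was called lower, against 1.46% of all tested genes. The count of 32 leaves out Inhba, described with the ligands. Fitted log2 fold changes were below 0 for 26 of the 32 genes, and 60.8% of all tested genes were also below 0. The median was -0.15 for the 32 genes and -0.05 for all tested genes. In 31 of the 32 genes the change was under 0.35 on the log2 scale, the exception being Trf. At an unadjusted p under 0.05, 7 genes were lower and 2 were higher, against 10.5% and 14.6% of all tested genes. The 95% interval of the fold change lay within a 1.5-fold change in either direction for 26 of the 32 genes, the other 6 being Amh, Gdnf, Trf, Cst12, Cldn3 and Cldn5. Where a gene was lower in whole testis, fewer Sertoli cells, less RNA per Sertoli cell and a larger share of other transcripts cannot be told apart.

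**Figure D1:**
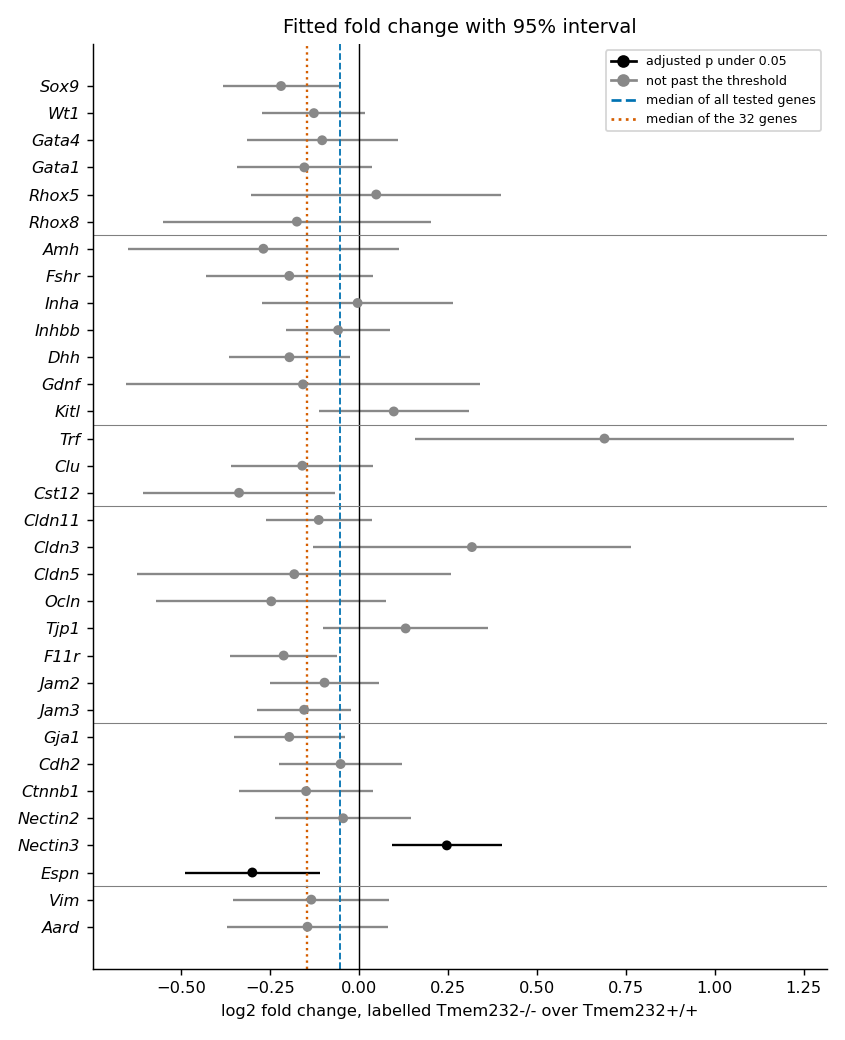
Fitted log2 fold change of the libraries labelled Tmem232-/- over those labelled Tmem232+/+ for the 32 tested genes, with 95% intervals and lines at the median of the 32 genes (-0.15) and of all 15787 tested genes (-0.05). Horizontal lines separate the roles, and black marks Nectin3 and Espn, the genes with an adjusted p under 0.05.

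Levels were compared between genes as FPKM, the deposited unit that takes transcript length into account. Clu stood first, with 737 ± 114 FPKM under the Tmem232-/- label and 842 ± 44.5 FPKM under the Tmem232+/+ label (SD, n = 4). Aard, Cst12, Inha, Nectin3 and Vim followed, each with a mean above 100 FPKM in both genotypes. Cldn11, the claudin of Sertoli cell tight junctions, had 87.3 ± 6.29 and 96.6 ± 2.38 FPKM (SD, n = 4), while Cldn3 and Cldn5 had means between 2.9 and 4.72 FPKM. The lowest were Gdnf, at 0.5 ± 0.122 and 0.575 ± 0.0700 FPKM (SD, n = 4), and Inhba, at 0.150 and 0.255 FPKM. The defining Sertoli cell markers Sox9, Wt1, Amh, Fshr, Rhox5 and Cst12 were present in all 8 libraries. Clusterin, vimentin, beta-catenin and some of the claudins are also made by other cells of the testis, so their levels are those of the whole organ.

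**Figure D2:**
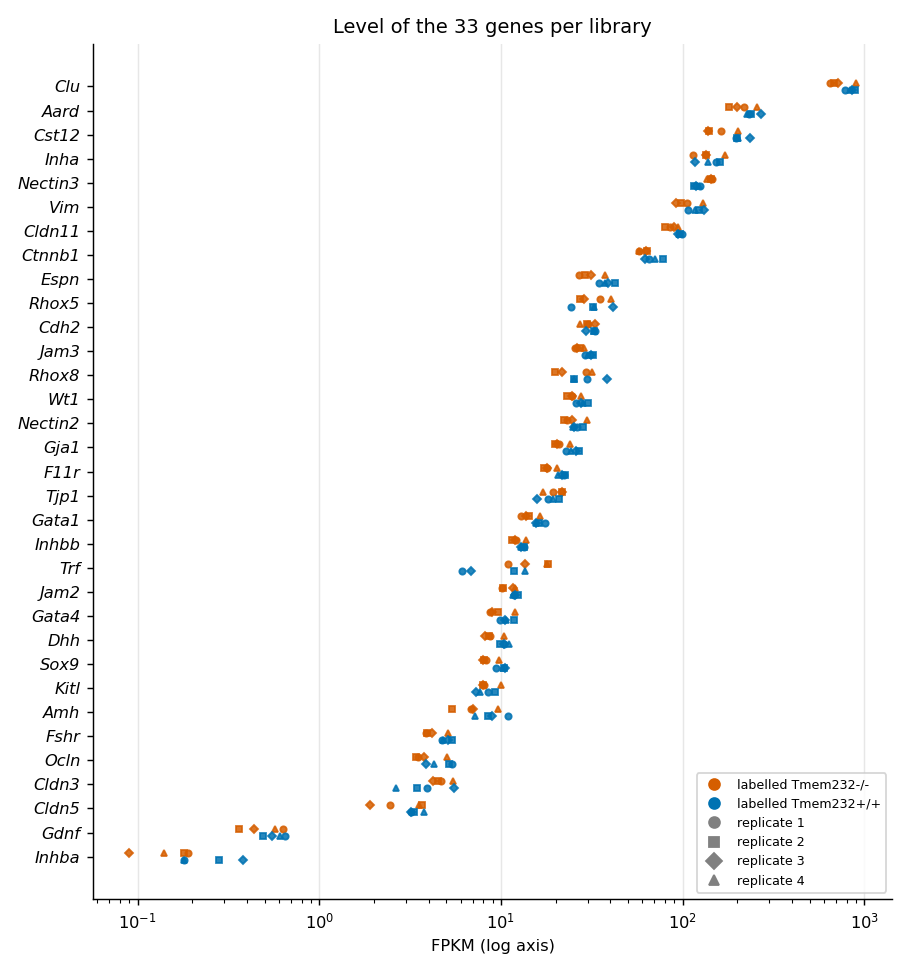
FPKM (log axis) of the 33 genes in each library, ordered by mean. Points are single libraries, coloured by genotype label and shaped by replicate number. Clu is highest (737 and 842 FPKM) and Inhba lowest (0.150 and 0.255 FPKM), and for most genes the points of the genotypes lie among each other.

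The nectins and espin belong to the contacts that the Sertoli cell makes with spermatids. Nectin3 (Entrez ID 58998, chr16:46387665-46498560 in GRCm38) encodes nectin-3, the adhesion molecule known from the spermatid side of the ectoplasmic specialization. It had 474, 464, 465 and 414 CPM over replicates 1 to 4 labelled Tmem232-/- and 407, 364, 367 and 394 CPM over replicates 1 to 4 labelled Tmem232+/+. Every library labelled Tmem232-/- exceeded every library labelled Tmem232+/+, although replicate 4 labelled Tmem232-/- lay close to replicate 1 labelled Tmem232+/+. The log2 fold change was 0.25 (standard error 0.0699, edgeR adjusted p = 0.0422), or 1.19-fold (95% interval 1.07 to 1.32). Among the 32 genes Nectin3 alone was higher without overlap, as were 11.8% of all tested genes. The spermatid lists given above were higher in the same libraries, and their part in the difference of Nectin3 was not tested. Over 19 alternatives the log2 fold change of Nectin3 lay between 0.21 and 0.32, with adjusted p from 0.00169 to 0.156. It was no longer called without replicate 1, 2 or 3 labelled Tmem232-/- (log2 fold changes 0.23, 0.24 and 0.24) or without replicate 2 or 4 labelled Tmem232+/+ (0.22 and 0.26), nor under the replicate block (0.25, adjusted p = 0.156).

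Nectin2, the partner of nectin-3 on the Sertoli cell, had 55.4 to 71.9 CPM in the libraries labelled Tmem232-/- and 60.6 to 68.0 CPM in those labelled Tmem232+/+. Its groups overlapped, with a log2 fold change of -0.04 and a 95% interval from -0.24 to 0.15.

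Espn (Entrez ID 56226, chr4:152120331-152152420) encodes espin, the actin-bundling protein of the ectoplasmic specialization. It had 84.7, 89.3, 95 and 109.4 CPM over replicates 1 to 4 labelled Tmem232-/- and 109.5, 125, 119 and 112 CPM over replicates 1 to 4 labelled Tmem232+/+. The groups did not overlap, but replicate 4 labelled Tmem232-/- all but reached replicate 1 labelled Tmem232+/+. The log2 fold change was -0.30 (standard error 0.0860, edgeR adjusted p = 0.0449), or 0.813-fold (95% interval 0.713 to 0.926). Espn was called in 6 of 19 alternatives, with log2 fold changes from -0.36 to -0.25 and adjusted p from 0.0119 to 0.137. With single libraries left out, the call held only without replicate 4 labelled Tmem232-/-, where the log2 fold change was -0.36.

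Stretches upstream of an annotated start of each of these genes are shown because they are the called ones. They were taken from RefSeq on GRCm38.p6 and lie on the minus strand. The first covers 250 bases at chr16:46496968-46497217, and the second 219 bases at chr4:152152421-152152639, cut so that it begins outside the span of Espn given above. The Nectin3 stretch lies inside the span of its gene, because longer transcripts start farther upstream. It overlaps 1 transcript of GENCODE M21 and 0 exon bases, so it is intronic there. Capitals mark GGGCGG, the GC box bound by Sp1, on either strand.
Nectin3: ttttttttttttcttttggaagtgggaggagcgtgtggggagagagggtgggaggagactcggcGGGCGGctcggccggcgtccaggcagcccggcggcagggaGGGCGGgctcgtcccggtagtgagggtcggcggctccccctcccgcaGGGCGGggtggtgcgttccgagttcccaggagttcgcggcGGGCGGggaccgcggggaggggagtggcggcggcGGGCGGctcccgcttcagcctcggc
Espn: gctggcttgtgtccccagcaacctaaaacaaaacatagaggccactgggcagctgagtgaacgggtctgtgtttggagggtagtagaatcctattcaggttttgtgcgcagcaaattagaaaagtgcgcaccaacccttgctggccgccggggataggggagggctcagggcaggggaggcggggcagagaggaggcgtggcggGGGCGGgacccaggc
The Nectin3 stretch holds 5 GC boxes and the Espn stretch 1. Upstream windows of 250 bases were at hand for 22 of the 33 genes, in 27 windows. A GC box lay in 16 of the 27, that is 59.3%, against 32.7% of all 32851 windows. Several other motifs were searched on both strands of these windows. The core letters AGATAA of sites for GATA factors lay upstream of Gja1 and of a start inside the span of Gdnf. Of all windows, 9.99% held them. The other Gdnf window, just before that gene's span, did not. The core of sites for SOX factors, AACAAT, lay upstream of Rhox5 alone among the set, as against 9.42% of all windows. Rhox5 was also the one gene with a half-site of the androgen receptor, searched as AGAACA and held by 16.1% of all windows. Its SOX and androgen receptor matches overlap in the same short stretch, so they are not separate finds. For Gdnf, Gja1 and Rhox5, the bases checked after the annotated start matched no GENCODE M21 transcript of the gene. The E-box with the letters CACGTG lay upstream of Fshr, and 6.02% of all windows held it. The cAMP response element, searched as TGACGTCA, was in 0 of the 27 windows and in 1.55% of all windows. A match of letters is a description of the sequence.

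The remaining genes of the gap and adherens junctions were not called. Gja1, which encodes connexin 43, the main gap junction protein of Sertoli cells, had 63.3, 59.3, 60.8 and 69.2 CPM over replicates 1 to 4 labelled Tmem232-/- and 68.1, 76.8, 74.0 and 70.4 CPM over replicates 1 to 4 labelled Tmem232+/+. Only replicate 4 labelled Tmem232-/- reached into the other group, and the log2 fold change was -0.20 (95% interval -0.35 to -0.04, edgeR adjusted p = 0.109). Over 19 alternatives its adjusted p stayed between 0.0507 and 0.285. Cdh2, encoding N-cadherin, had 126 to 156 CPM and 135 to 156 CPM, with a log2 fold change of -0.05 (95% interval -0.22 to 0.12). Ctnnb1, encoding its cytoplasmic partner beta-catenin, had 188 to 221 CPM and 200.1 to 255 CPM, with a log2 fold change of -0.15 (95% interval -0.34 to 0.04).

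By edgeR no tight junction gene passed the test, nor did any with DESeq2 or limma-voom. In edgeR 2 had an unadjusted p under 0.05, against 14.6% of all tested genes higher and 10.5% lower. Of the 8 genes, 6 had a log2 fold change below 0, with a median of -0.13. F11r (Entrez ID 16456, chr1:171437561-171464593), which encodes the junctional adhesion molecule JAM-A, had 42.6, 40.7, 42.2 and 46.2 CPM over replicates 1 to 4 labelled Tmem232-/- and 52.3, 50.6, 49.2 and 46.6 CPM over replicates 1 to 4 labelled Tmem232+/+. Its groups did not overlap, and its log2 fold change was -0.21 (standard error 0.0684, edgeR adjusted p = 0.0741). The adjusted p ranged from 0.0431 to 0.324 over 19 alternatives, 3 of which called it. Jam3 (Entrez ID 83964, chr9:27097384-27155421), encoding JAM-C, had 47.2, 49.6, 48.0 and 50.9 CPM against 53.5, 56.3, 54.8 and 53.2 CPM. It did not overlap either, and its log2 fold change was -0.15 (standard error 0.0598, edgeR adjusted p = 0.136, 0.0795 to 0.397 over 19 alternatives). In Jam3, 36.2% of the exon bases in GENCODE M21 also lie in exons of an opposite-strand gene, Gm48796, and whether counting used the strand is not given in the sources used here. Together with Espn, 3 of the 32 genes lay lower in all libraries labelled Tmem232-/- than in all others, against 6.88% of all tested genes. Jam2, which encodes JAM-B, had 45.4 to 51.9 CPM and 50.4 to 53.1 CPM, a log2 fold change of -0.10 (95% interval -0.25 to 0.06).

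Of the claudins, Cldn11 had 138 to 158 CPM in the libraries labelled Tmem232-/- and 156 to 173 CPM in those labelled Tmem232+/+. Its log2 fold change was -0.11, with a 95% interval from -0.26 to 0.04. Cldn3, a claudin of newly formed Sertoli cell junctions, had 5.26, 4.96, 4.68 and 5.90 CPM against 4.36, 3.63, 5.89 and 2.83 CPM, a log2 fold change of 0.32 (95% interval -0.13 to 0.76). Here the libraries labelled Tmem232+/+ were spread more widely than the others. Cldn5, which is also the claudin of endothelial cells, had 2.40 to 4.64 CPM and 3.86 to 4.61 CPM, a log2 fold change of -0.18 (95% interval -0.62 to 0.26). The 10 endothelial markers, with Cldn5 among them, summed to 37.7 to 57.7 and 39.1 to 54.7 CPM, and none was at 0. None was called by edgeR, DESeq2 or limma-voom, and 1 had an unadjusted p under 0.05 in edgeR. At that unadjusted p, 14.6% of all tested genes were higher and 10.5% lower.

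Ocln, encoding occludin, had 12.4, 11.5, 12.5 and 17.3 CPM over replicates 1 to 4 labelled Tmem232-/- and 18.6, 17.1, 13.8 and 14.2 CPM over replicates 1 to 4 labelled Tmem232+/+. Replicate 4 labelled Tmem232-/- was far above the other 3, and the log2 fold change was -0.25 (95% interval -0.57 to 0.08, edgeR adjusted p = 0.329). It was -0.38 without that library (adjusted p = 0.0680) and -0.12 without replicate 1 labelled Tmem232+/+ (adjusted p = 0.726). Of 19 alternatives, 1 called Ocln, the one without both replicate 4 labelled Tmem232-/- and replicate 3 labelled Tmem232+/+ (log2 fold change -0.44, adjusted p = 0.0312). Tjp1, which encodes ZO-1, the scaffold under the tight junction, had 112 to 147 CPM and 104 to 136 CPM, with a log2 fold change of 0.13 (95% interval -0.10 to 0.36).

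**Figure D3:**
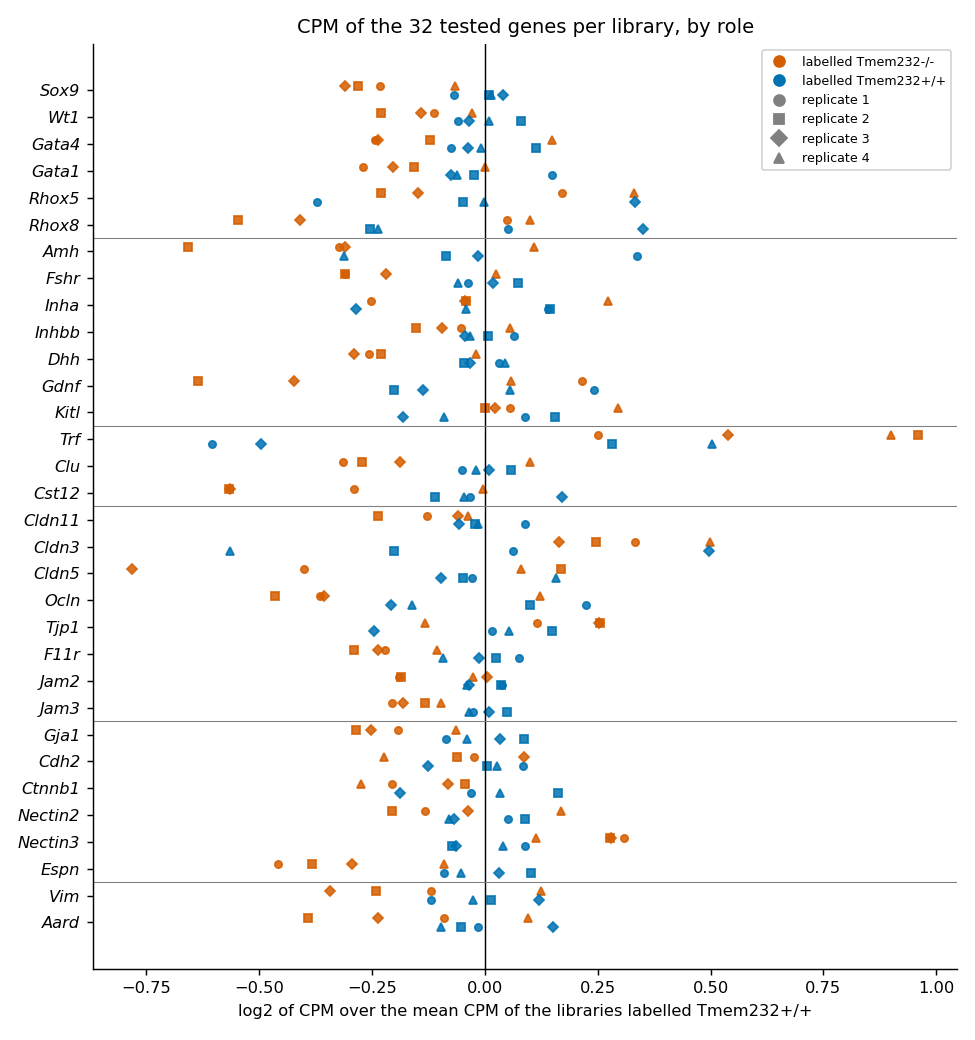
Base-2 logarithm of the CPM of each library over the mean CPM of the libraries labelled Tmem232+/+ for the 32 tested genes, grouped by role. The libraries labelled Tmem232-/- all lie to the right of the others for Nectin3 and to the left of them for Espn, F11r and Jam3, and replicate 4 is the highest of its label for 24 of the 32 genes.

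Among the transcription factors, 5 of 6 had a log2 fold change below 0. None was called by edgeR, DESeq2 or limma-voom. In edgeR 1 had an unadjusted p under 0.05, against 14.6% of all tested genes higher and 10.5% lower. Sox9, the gene that sets Sertoli cell fate, had 33.9, 32.8, 32.2 and 38.1 CPM over replicates 1 to 4 labelled Tmem232-/- and 38.1, 40.1, 41.0 and 40.3 CPM over replicates 1 to 4 labelled Tmem232+/+. Replicate 4 labelled Tmem232-/- and replicate 1 labelled Tmem232+/+ met at 38.1 CPM, and the other libraries were apart. The log2 fold change of Sox9 was -0.22 (standard error 0.0739, edgeR adjusted p = 0.0874, 0.0316 to 0.232 over 19 alternatives). Wt1, needed to keep Sertoli cells differentiated, had 68.8 to 79.1 CPM and 77.5 to 85.4 CPM, a log2 fold change of -0.13 (95% interval -0.27 to 0.02). Gata4, a zinc finger factor of gonadal somatic cells, had 29.1 to 38.1 and 32.6 to 37.2 CPM, and Gata1, its relative on the X chromosome, had 23.5 to 28.3 and 26.9 to 31.4 CPM. Their log2 fold changes were -0.10 and -0.15.

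Rhox5 and Rhox8, X-linked homeobox genes, varied more between mice than between genotypes. Rhox5, which responds to androgen, had 23.0, 17.4, 18.4 and 25.6 CPM against 15.8, 19.7, 25.7 and 20.4 CPM, a log2 fold change of 0.05 (95% interval -0.30 to 0.40). Rhox8 had 31.3, 20.7, 22.8 and 32.4 CPM against 31.3, 25.4, 38.6 and 25.7 CPM, a log2 fold change of -0.17 (95% interval -0.55 to 0.20). In both genes, replicates 1 and 4 labelled Tmem232-/- were above replicates 2 and 3, and replicate 3 labelled Tmem232+/+ was the highest of its group.

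Of the hormones, ligands and receptor, 7 of 8 genes passed the filter. None was called by edgeR, DESeq2 or limma-voom. In edgeR 1 had an unadjusted p under 0.05, against 14.6% of all tested genes higher and 10.5% lower. Dhh, encoding desert hedgehog, which signals to Leydig and peritubular cells, had 30.9, 31.4, 30.2 and 36.4 CPM over replicates 1 to 4 labelled Tmem232-/- and 37.7, 35.7, 36.1 and 38.1 CPM over replicates 1 to 4 labelled Tmem232+/+. Replicate 4 labelled Tmem232-/- again stood within the other group, and the log2 fold change was -0.20 (standard error 0.0774, edgeR adjusted p = 0.144, 0.0384 to 0.417 over 19 alternatives). In GENCODE M21, 25.2% of the exon bases of Dhh also lie in exons of an opposite-strand gene and 12.4% in exons of Rhebl1 on its own strand. Amh, encoding anti-Müllerian hormone, had 8.60 to 14.6 CPM and 10.9 to 17.1 CPM, with a log2 fold change of -0.27 (95% interval -0.65 to 0.11). Fshr, the receptor through which follicle-stimulating hormone acts on Sertoli cells, had 8.72, 8.72, 9.30 and 11 CPM against 10.5, 11.4, 11 and 10.4 CPM, a log2 fold change of -0.20 (95% interval -0.43 to 0.04).

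The inhibin alpha subunit gene Inha had the same mean in both groups, 181 ± 27.9 and 181 ± 24.5 CPM (SD, n = 4), and a log2 fold change of -0.0036 (95% interval -0.27 to 0.26). Inhbb, the beta B subunit that pairs with it in inhibin B, had 47.8 to 55.1 and 51.5 to 55.5 CPM, a log2 fold change of -0.06 (95% interval -0.20 to 0.09). Inhba, the beta A subunit, had 5, 5, 3 and 7 counts over replicates 1 to 4 labelled Tmem232-/- and 6, 8, 11 and 9 counts over replicates 1 to 4 labelled Tmem232+/+. The filter on low counts removed it. In the fits that kept it, its log2 fold change was -0.68 without the filter in edgeR (standard error 0.385, adjusted p = 0.386) and -0.71 in DESeq2 (standard error 0.584, adjusted p = 0.570), and neither called it. Gdnf, which keeps spermatogonial stem cells renewing, had 1.26 to 2.26 and 1.70 to 2.31 CPM, a log2 fold change of -0.16 (95% interval -0.65 to 0.34). Kitl, the stem cell factor that acts on KIT of differentiating spermatogonia, had 42.9 to 52.6 and 37.9 to 47.8 CPM, a log2 fold change of 0.10 (95% interval -0.11 to 0.31).

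The secreted proteins held the largest fitted difference of the 32 tested genes and the most abundant transcript of the set. Trf (Entrez ID 22041, chr9:103199404-103230286), encoding the iron carrier transferrin, had 24.4, 39.8, 29.7 and 38.2 CPM over replicates 1 to 4 labelled Tmem232-/- and 13.5, 24.9, 14.5 and 29.0 CPM over replicates 1 to 4 labelled Tmem232+/+. The groups overlapped, since replicates 2 and 4 labelled Tmem232+/+ exceeded replicate 1 labelled Tmem232-/-. The log2 fold change was 0.69 (standard error 0.242, unadjusted p = 0.0157, edgeR adjusted p = 0.0998), or 1.61-fold with a 95% interval from 1.12 to 2.33. Adjusted p ranged from 0.00545 to 0.247 over 19 alternatives, 3 of which called Trf. They were the replicate block in edgeR (adjusted p = 0.00545), DESeq2 (0.0299), and edgeR without replicate 4 labelled Tmem232+/+ (0.0367). In GENCODE M21, 63.5% of the exon bases of Trf are shared with Gm20425, a gene model on the same strand.

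In both genotypes, replicates 2 and 4 had more Trf than replicates 1 and 3. No Leydig cell marker of 10 was called by edgeR, although 5 had an unadjusted p under 0.05, DESeq2 called 2 and limma-voom 1. At that unadjusted p in edgeR, 14.6% of all tested genes were higher and 10.5% lower. Over all genes, DESeq2 called 1815 higher and 220 lower, and limma-voom 1622 and 232. No Leydig cell marker was at 0. The list summed to 558, 667, 645 and 806 CPM over replicates 1 to 4 labelled Tmem232-/- and 387, 625, 511 and 626 CPM over replicates 1 to 4 labelled Tmem232+/+. Here too replicates 2 and 4 exceeded replicates 1 and 3 in both groups. The 8 macrophage markers, of which 0 had an unadjusted p under 0.05 in edgeR and none was called by edgeR, DESeq2 or limma-voom or at 0, summed to 87.3, 112, 95.7 and 112 CPM and to 87.9, 112, 84.8 and 117 CPM, with the same split. Cyp11a1, the Leydig cell enzyme that begins steroid synthesis, was chosen after its values were seen, and it had 70.9, 108, 96.7 and 109.9 CPM against 39.8, 90.5, 44.0 and 81.0 CPM. Sums of the endothelial markers were 37.7, 57.7, 46.3 and 45.0 CPM over replicates 1 to 4 labelled Tmem232-/-, without this split. Under the Tmem232+/+ label they were 49.0, 54.7, 39.1 and 53.5 CPM, with it. The median log2 fold change of the Leydig cell list was 0.36 and that of the macrophage list -0.02. The part of these cells in the values of Trf was not tested.

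**Figure D4:**
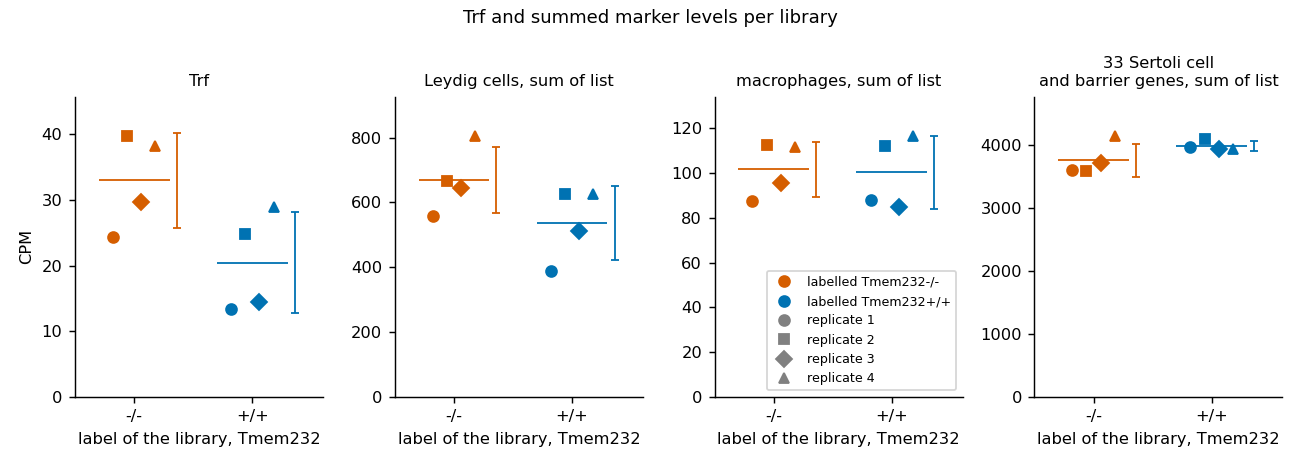
CPM of Trf and summed CPM of the Leydig cell list, the macrophage list and the 33 genes in each library, with the mean (line) and SD (bar) of each group of 4. Replicates 2 and 4 are above replicates 1 and 3 for Trf and for the Leydig cell and macrophage sums in both groups, and in the sum of the 33 genes replicate 4 labelled Tmem232-/- (4146 CPM) stands above the other 3 of its label.

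Clu, which encodes the secreted chaperone clusterin, had 1094, 1126, 1193 and 1458 CPM over replicates 1 to 4 labelled Tmem232-/- and 1312, 1416, 1368 and 1342 CPM over replicates 1 to 4 labelled Tmem232+/+. The first 3 were below every library of the other label and replicate 4 was above them all. Its log2 fold change was -0.16 (95% interval -0.36 to 0.04, edgeR adjusted p = 0.309). Cst12, a cystatin gene of Sertoli cells, had 62.9, 51.8, 51.9 and 76.6 CPM against 75.1, 71.2, 86.5 and 74.4 CPM. The same library overlapped the other group, and the log2 fold change was -0.34 (standard error 0.122, edgeR adjusted p = 0.111, 0.00623 to 0.278 over 19 alternatives). Vim, the intermediate filament gene, had 155 to 214 and 181 to 213 CPM, and Aard, a Sertoli cell marker on chromosome 15, had 215 to 301 and 263 to 313 CPM. Their log2 fold changes were -0.13 and -0.14.

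Replicate 4 labelled Tmem232-/- stood apart from the other libraries of its label. It had the highest CPM of the 4 for 24 of the 32 genes, whereas 29.2% of all tested genes were highest there. It was the lowest for 4, namely Tjp1, Cdh2, Ctnnb1 and Nectin3. The summed CPM of the 33 genes was 3604, 3584, 3709 and 4146 over replicates 1 to 4 labelled Tmem232-/- and 3969.8, 4099, 3935 and 3941 over replicates 1 to 4 labelled Tmem232+/+. Replicates 1 to 3 labelled Tmem232-/- were below all libraries labelled Tmem232+/+, and replicate 4 was above all of them. Without this library, 7 of the 32 genes were called, with Nectin3 higher and Clu, Cst12, Dhh, Espn, F11r and Sox9 lower. Of all 15898 genes tested in that fit, 11% were called higher and 2.24% lower. Without it the median log2 fold change of the 32 genes was -0.19, and that of all genes tested in that fit was -0.04. Genes called higher took 8.40% to 9.97% of the CPM of tested genes in the libraries labelled Tmem232-/- and 5.02% to 5.88% in the others, and the part of this share in the lower values of the set was not tested.

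Within each label, the libraries also differed by transcript length. The length behind each FPKM was computed from counts and FPKM, and each gene's log2 of CPM plus 0.5 was set against the mean of its group. Across the 32 genes, Spearman's rho between length and this deviation was -0.10, 0.32, 0.46 and -0.60 over replicates 1 to 4 labelled Tmem232-/-. In replicates 1 to 4 labelled Tmem232+/+ it was 0.10, 0.42, -0.51 and 0.31. These are descriptions across genes of 1 library, which are not independent. Across the 15063 tested genes with a mean of at least 1 CPM, rho was -0.30, 0.33, 0.43 and -0.36 over replicates 1 to 4 labelled Tmem232-/- and 0.06, 0.45, -0.47 and 0.19 over replicates 1 to 4 labelled Tmem232+/+. Replicate 1 labelled Tmem232-/- was thus near replicate 4 over all genes, but not over the 32. In replicate 4 labelled Tmem232-/-, the 11 shortest transcripts, from Cst12 with 373 bases to Cldn11 with 1699 bases, had a median deviation of 0.27. The 11 longest, from Gata4 to Tjp1 with 6682 bases, had a median deviation of 0.155. The 10 genes of middle length had one of 0.145, so the medians did not fall steadily with length. With an offset for length added to the edgeR fit, an alternative chosen after seeing the data, Nectin3 was called higher and Cst12 was called lower, against 12% and 1.56% of all tested genes. Espn then had a log2 fold change of -0.26 with an adjusted p of 0.0580. The part of RNA quality or library preparation in this pattern was not tested.

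**Figure D5:**
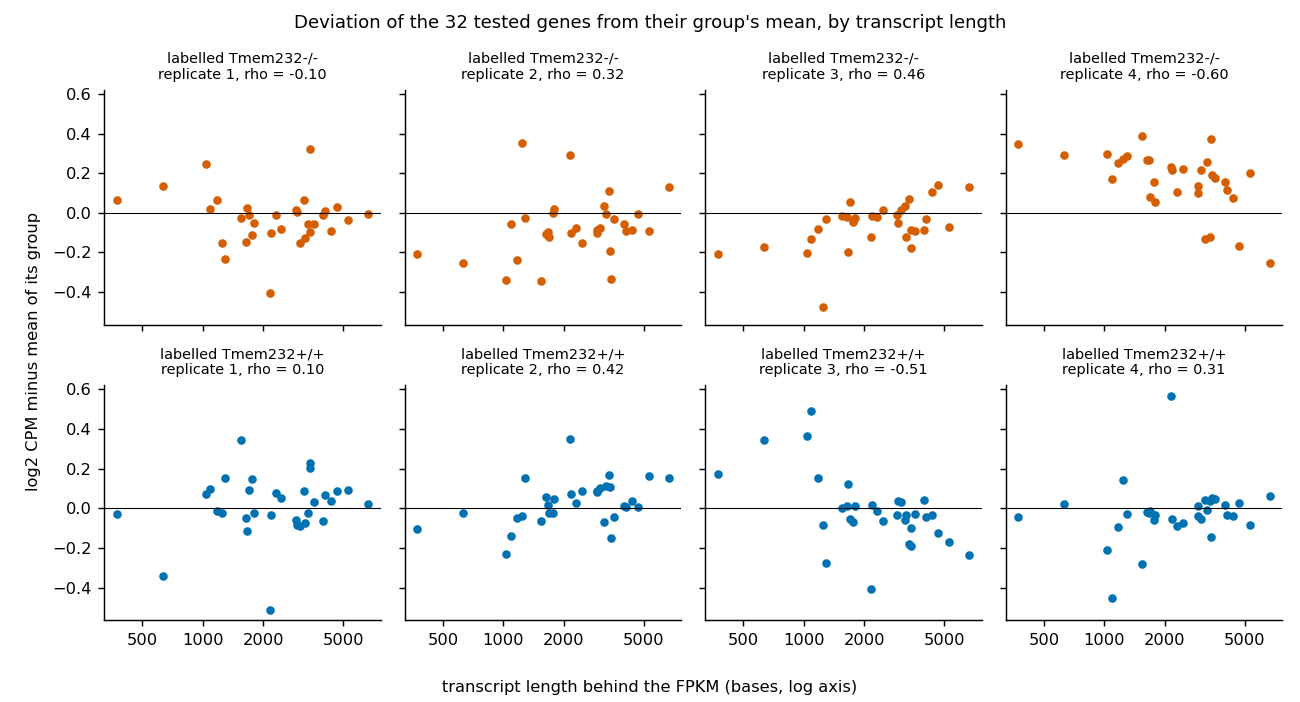
Log2 CPM of each of the 32 tested genes minus the mean of its group, against transcript length (bases, log axis), with 1 panel per library and Spearman's rho across the 32 genes above it. Longer transcripts are lower relative to shorter ones in replicate 4 labelled Tmem232-/- (rho = -0.60) and replicate 3 labelled Tmem232+/+ (rho = -0.51).

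Further genes of the same biology were tested in the same fit, where 10.3% of all tested genes were called higher and 1.46% lower. Of 24 tested genes among 25 other Sertoli cell genes, 1 was higher and none was lower, with a median log2 fold change of -0.12. The higher one was Nr4a1, an immediate early nuclear receptor gene, which had 26.7, 25.5, 18.7 and 24.9 CPM against 13.2, 13.4, 11.8 and 12.5 CPM (log2 fold change 0.91, standard error 0.117, edgeR adjusted p = 0.00026). Of the 17 receptors, antagonists and targets of the ligands above, such as the GDNF receptor genes Gfra1 and Ret and the hedgehog target Gli1, none was called by edgeR, DESeq2 or limma-voom. In edgeR 6 of them had an unadjusted p under 0.05, against 14.6% of all tested genes higher and 10.5% lower. The median log2 fold change of the 17 was -0.15. Of 36 tested genes among 43 other junction and polarity genes, 1 was higher and 1 was lower, with a median of -0.11. Jup, encoding plakoglobin of desmosomes and adherens junctions, was higher by 0.76 on the log2 scale (standard error 0.127, edgeR adjusted p = 0.00168). Gjc1, encoding connexin 45, was lower, with a log2 fold change of -0.31 (standard error 0.0852, edgeR adjusted p = 0.0387). Gjc1 was called in 10 of 19 alternatives, with adjusted p from 0.0337 to 0.112. Its call was lost with DESeq2 size factors, without a filter, under the replicate block, and without any single library except replicates 3 and 4 labelled Tmem232-/-. Nr4a1 and Jup were called in all 19. The groups did not overlap for any of Nr4a1, Jup and Gjc1.

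The peritubular myoid cells lie against the Sertoli cells from outside the tubule. Of their 8 markers, 1 was called higher and 3 lower by edgeR, against 10.3% and 1.46% of all tested genes. The markers had a median of -0.35 and none was at 0. They summed to 349 to 408 CPM in the libraries labelled Tmem232-/- and 404 to 496 CPM in the others. The smooth muscle actin gene Acta2 had a log2 fold change of -0.38 (standard error 0.0909, edgeR adjusted p = 0.0182), and Actg2, another actin gene, of 1.20 (standard error 0.165, edgeR adjusted p = 0.000437). Acta2 was called in 15 of 19 alternatives, with adjusted p up to 0.120 and losses under the replicate block and without replicate 1 or 3 labelled Tmem232-/- or replicate 1 labelled Tmem232+/+, and Actg2 in all 19. Of the 13 markers of spermatogonia, the cells on the basal side of the barrier, 4 were lower and none was higher, with a median of -0.26, none at 0, and sums of 901 to 966 and 914 to 1125 CPM. Sohlh1 and Sall4, which act in their differentiation and renewal, had log2 fold changes of -0.55 (edgeR adjusted p = 0.0351) and -0.48 (edgeR adjusted p = 0.0227). Sohlh1 was called in 10 of 19 alternatives, with adjusted p from 0.0072 to 0.111. It was lost without a filter, under the replicate block and without any single library except replicate 4 labelled Tmem232-/-. Sall4 was called in 14 of 19, with adjusted p from 0.0177 to 0.101, and was lost under the replicate block and without replicate 1 or 3 labelled Tmem232-/-, and also without replicate 1 or 2 labelled Tmem232+/+.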

How the data were processed

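Total RNA of 8 whole mouse testes was sequenced after library construction with a TruSeq RNA kit, 1 library per mouse. The submitters' processing notes name HISAT, Bowtie2, StringTie, featureCounts, DESeq2 and GRCm38.p6; versions are not given in the sources used here. The authors deposited estimated counts per gene without normalization and FPKM values, scaled to transcript length and library total. Their group means, log2 fold changes and DESeq2 p- and q-values were not used.

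Counts were rounded to whole numbers (between 10.7% and 11.2% of genes per library were not whole; all 33 genes were) and tested with edgeR 4.0.16 in R 4.3.3 (filterByExpr, TMM, quasi-likelihood test without covariates, Benjamini-Hochberg adjustment over 15787 tested genes). DESeq2 1.42.0 and limma 3.58.1 served for alternatives, with Python 3.11.15 for summaries. Standard errors are the log2 fold change over the square root of the quasi-likelihood F, and 95% intervals use its total degrees of freedom (residual and prior). The labels state separate mice but no litters. The 33 genes and all marker lists were chosen with earlier results of these data known. Every gene of the set is named, as is Tmem232. Of other lists, genes given as called come from at most the 3 called genes with the largest change and a mean of at least 1 CPM. Outside this rule, Cyp11a1 was named after its values were seen, and Gfra1, Ret and Gli1 only as examples of their list. Alternatives were other tools, scalings and filters, FPKM on a log2 scale with a pseudocount of 1 or 0.1, the replicate number as a block, an offset for transcript length, and libraries left out. The steps were tested on simulated data at the same threshold. There 185 of 15764 tested genes carried a built-in difference for edgeR and limma-voom, and 200 of 16659 for DESeq2. False calls made up 7.14% of the calls with edgeR, 14.2% with DESeq2 and 6.67% with limma-voom. These shares belong to the simulated data. The share of false calls among the calls in the real libraries, Nectin3 and Espn included, was not tested. Library pairs differed by more than sampling noise, so none was counted as a repeat. 1 gene of the list of other junction and polarity genes is not reported here and was left out of that list's counts.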

Additional observations from a re-analysis of the deposited data

Results flagged for a closer look

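In 2 of 70 groups of 4 libraries, 1 library lay far from the other 3 by Dixon's ratio at the 95% level. Chance marks about 1 in 20 groups, so 3.5 of 70. Replicate 4 labelled Tmem232-/- had 17.3 CPM of Ocln, the occludin gene, whereas the other 3 libraries of its label had 11.5 to 12.5 CPM. The same library had 414 CPM of Nectin3, whereas the other 3 had 464 to 474 CPM.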

How the results depend on the processing

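Over the 32 tested genes, 555 of the 608 fitted values under an alternative kept the direction and the side of the threshold. Genes called lower over the whole table numbered 230, and 131 with DESeq2 size factors, 415 with library size alone, 71 without a filter, 466 and 448 with log2(FPKM + 1) and log2(FPKM + 0.1) in limma, 28 with the replicate block, and 391 without replicate 4 labelled Tmem232-/- and replicate 3 labelled Tmem232+/+ together. With 1 library left out they ranged from 37 to 356, and those called higher from 1356 to 1865. Of the 33 genes, 1 was called higher, with 2 by DESeq2 and 0 to 1 with a library left out. Called lower was 1, with 0 under DESeq2 size factors, without a filter and under the replicate block, 0 to 6 with a library left out, and 6 without those libraries together. The 0 to 6 rests on replicate 4 labelled Tmem232-/-, without which it was 6. The genes behind a count of 1 were not always Nectin3 and Espn. With both FPKM fits the lower gene was F11r, and Espn had adjusted p of 0.0935 and 0.0946 in limma. With the length offset it was Cst12. Without replicate 4 labelled Tmem232+/+ the higher gene was Trf. The direction of uncalled genes turned as follows. With 1 library left out, log2 fold changes ranged from -0.051 to 0.21 for Rhox5, from -0.094 to 0.088 for Inha, from -0.087 to 0.0032 for Inhbb, from -0.10 to 0.018 for Cdh2 and from -0.11 to 0.013 for Nectin2. Inha was 0.020 with DESeq2, 0.022 with its size factors, 0.042 without a filter, 0.0027 with at least 10 counts in every library and 0.034 with the length offset. Kitl was -0.0083 without the pair of libraries. The cause was not tested.

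Whether the replicate numbers pair the mice is not stated in the labels. The deviations of same-numbered libraries correlated at -0.06, 0.07, -0.33 and -0.11. These values cannot settle it, because the deviations also followed transcript length. With the replicate block, 1317 genes were higher and 28 lower, and Trf was the only one of the 32 genes called (log2 fold change 0.73, edgeR adjusted p = 0.00545). The length offset and the joint omission of 2 libraries were chosen after seeing the data. Depth limits Inhba, with 3 to 11 counts per library, and leaves wide intervals for Gdnf.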
